A study of Mus musculus with 6 samples.

Results

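The 10 formin genes examined here were Diaph1, Diaph2, Diaph3, Daam1, Daam2, Fmnl1, Fmnl2, Fmnl3, Fhod1 and Fhod3. They were taken by gene symbol from the 18943 genes of the deposited table, and each of the 10 had a row. Muscle stem cells (MuSCs) of wild-type C57BL/6 mice, 8 weeks old, had been purified by fluorescence-activated cell sorting and cultured for 5 days. The control group received the solvent DMSO, another group the peptide endothelin-3 (ET-3) and the remaining group the peptide neurotensin (NT), and each group held 2 RNA-seq libraries. The sample labels give 100 nM for both peptides, whereas the study's methods give micromolar doses. All cells were plated outside their niche, so DMSO is a culture control and not freshly isolated muscle tissue. The study describes each group as 3 biological samples, whereas 2 libraries per group were analysed here. It is not stated whether these 2 came from separate mice or cultures, and the p-values then measure only the spread between these libraries, which may be technical.

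Formins build unbranched actin filaments. A formin dimer nucleates a filament, stays on its growing end and adds actin that profilin delivers. Most formins fold back on themselves and are inactive until a small GTPase binds them, and RhoA is the classical activator of the Diaph proteins. ET-3 and NT act on G protein-coupled receptors, which can signal to RhoA through heterotrimeric G proteins. Daam1 and Daam2 bind Dishevelled in the planar cell polarity branch of Wnt signaling, the Fmnl proteins are formins of the cell edge and of protrusions, Fhod1 acts on contractile actin bundles, and Fhod3 is needed for the actin filaments of sarcomeres in heart muscle. Differentiation of MuSCs into fusing myocytes includes assembly of new sarcomeres.

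The deposited values are read counts per gene that had been multiplied by 1 factor per library and rounded. They are not corrected for gene length, and a value of 1 is close to 1 read. The factors ran from 0.781 to 1.19, and the libraries held between 3629296 and 5396581 reads on genes. The 2 ET-3 libraries differed from each other by no more than sampling noise, with a mean chi-square of 0.885 per gene, and the same held for the NT libraries at 0.927, while the DMSO libraries stood at 1.44. Such treated pairs may each be 1 sample, so the formin calls are also described after averaging the treated pairs into 1 sample per group. The counts of the other gene lists below are not given after averaging and carry this limit. Among the MuSC markers, Pax7, Myf5, Vcam1, Itga7 and Cdh15 were all detected, at sums of 5715 and 6239 under DMSO, 5464 and 5313 under ET-3, and 5021 and 4859 under NT. Within that sum Pax7 rose, whereas Cdh15, the cadherin of MuSCs and myoblasts, fell from 1547 and 1746 under DMSO to between 436 and 496 in the treated libraries. Myog, a driver of terminal myogenic differentiation, read 1157 and 1335 under DMSO against 28 to 38 in the 4 treated libraries. The study used these libraries to ask how ET-3 and NT change the transcriptome of cultured MuSCs.

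The formins split in the same way under both peptides. Diaph1, Diaph2, Diaph3, Fmnl2, Fmnl3 and Fhod1 rose by less than 2-fold, Fmnl1, Fhod3 and Daam2 fell by more than 2-fold, and Daam1 did not pass the test in either comparison. With limma on log2(value + 1) over all 13921 tested genes and Benjamini-Hochberg adjustment, 6 of the 10 formins rose with ET-3, against 30.6% of all tested genes, and 3 fell, against 33.2%. With NT the counts were 6 risen, against 29.7% of all tested genes, and 3 fallen, against 32.5%. Scaled by library totals, 5183 tested genes rose and 3697 fell with NT, in place of 4131 and 4528, and 9 formins were again called. Changes of at least 2-fold were called for 0 formins upwards and 3 downwards in both comparisons. Of all tested genes, 6.62% rose and 14.9% fell by at least 2-fold with ET-3, and 7.3% rose and 13.2% fell with NT. The median log2 fold change of the 10 formins was 0.26 with ET-3 and 0.37 with NT, whereas that of all tested genes was -0.01 in both. Both comparisons rest on the same DMSO libraries. Averaging the treated pairs into 1 sample per group assumes that the lone sample varies like the DMSO pair. The calls of Diaph2, Fmnl2 and Fmnl3 were then lost in both comparisons, and far fewer of all tested genes were called as well.

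**Figure D1:**
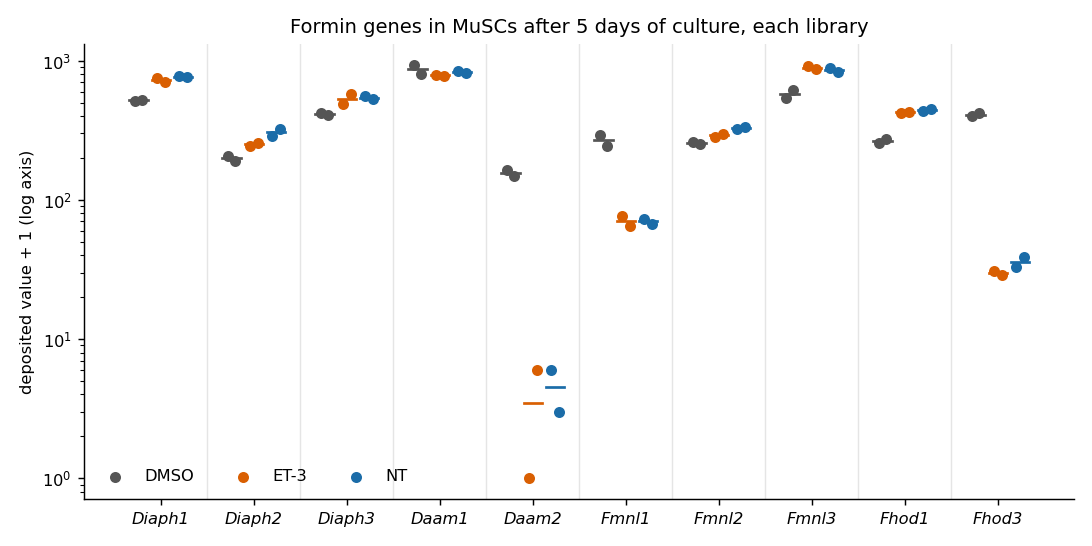
The plot shows the deposited value plus 1 on a log axis for each formin gene, with 1 point per library and a short line at the mean of the 2 libraries of a group, for DMSO (grey), ET-3 (orange) and NT (blue). The DMSO points of Daam2, Fmnl1 and Fhod3 lie far above all treated points, while for Diaph1 the DMSO points, at 516 and 517, lie below the treated points, which start at 696.

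Daam2, a formin of the Wnt pathway, showed the largest difference. Its values were 164 and 147 under DMSO, 0 and 5 under ET-3, and 5 and 2 under NT. The treated libraries were thus near the floor of detection and far from both DMSO libraries. Divided by the library factors, the DMSO libraries held 167 and 128 reads of Daam2, the ET-3 libraries 0 and 5, and the NT libraries 6 and 3. From these reads and on the scale of the deposited values, Daam2 was 54.8-fold lower with ET-3 (exact conditional 95% interval 23.2 to 170.0) and 42.5-fold lower with NT (22.1 to 93.9), intervals that cover counting error only. The fitted log2 fold changes were -6.00 ± 0.70 (SE) with ET-3 and -5.20 ± 0.70 with NT, with Benjamini-Hochberg adjusted p of 3.92e-05 and 0.000112 in limma, but at such low treated values they depend on the pseudocount. Daam2 (ENSMUSG00000040260) lies on the reverse strand at chr17:49456022-49564343 of GRCm38, and no other annotated gene shares its exons.

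Fhod3, the formin of sarcomeric actin, read 398 and 418 under DMSO, 30 and 28 under ET-3, and 32 and 38 under NT. All 4 treated libraries were close together and far below both DMSO libraries. Its log2 fold change was -3.77 ± 0.15 (SE) with ET-3, which is 13.6-fold lower, and -3.51 ± 0.15 with NT, which is 11.4-fold lower, with Benjamini-Hochberg adjusted p of 2.07e-08 and 3.55e-08 in limma. Of the exonic bases of Fhod3 (ENSMUSG00000034295), 4.26% are shared with the gene model Gm9955. Fmnl1, a formin best known from blood cells, read 292 and 242 under DMSO, 76 and 64 under ET-3, and 72 and 66 under NT. The treated libraries lay close together and below both DMSO libraries. The log2 fold changes of Fmnl1 were -1.92 ± 0.14 with ET-3 and -1.93 ± 0.14 with NT, 3.77-fold and 3.82-fold lower, with Benjamini-Hochberg adjusted p of 1.28e-06 and 1.32e-06 in limma. Fmnl1 (ENSMUSG00000055805) lies on the forward strand at chr11:103171107-103198901, and 2.46% of its exonic bases are shared with the gene model Gm20511. In RNA of whole cultures, fewer cells that express a gene and less RNA per cell cannot be told apart.

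The stretches before the start sites of Daam2 and Fmnl1 are printed here because these genes fell and have an entry in the promoter table. They come from the RefSeq promoter table of GRCm38.p6, end before the first exon of the gene in GENCODE and are written 5′ to 3′ on the strand of the gene. The Daam2 stretch is chr17:49564344-49564587 on the reverse strand, with 57.4% G and C, and the Fmnl1 stretch is chr11:103170888-103171106 on the forward strand, with 78.1%. A match to the E-box CANNTG, the letters bound by MyoD and other basic helix-loop-helix factors, would stand in capitals, and there was none in either.
Daam2 promoter: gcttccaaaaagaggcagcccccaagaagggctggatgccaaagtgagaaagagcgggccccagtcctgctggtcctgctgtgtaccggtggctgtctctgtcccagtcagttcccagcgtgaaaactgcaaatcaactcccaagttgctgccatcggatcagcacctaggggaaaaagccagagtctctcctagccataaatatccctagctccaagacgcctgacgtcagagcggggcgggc
Fmnl1 promoter: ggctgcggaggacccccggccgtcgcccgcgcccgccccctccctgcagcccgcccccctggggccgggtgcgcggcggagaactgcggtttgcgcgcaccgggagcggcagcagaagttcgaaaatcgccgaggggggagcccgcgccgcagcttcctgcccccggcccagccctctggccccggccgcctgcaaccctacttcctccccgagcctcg

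The 3 Diaph genes, which encode the classical effectors of RhoA, all rose. Diaph1 (ENSMUSG00000024456) read 516 and 517 under DMSO, 745 and 696 under ET-3, and 775 and 756 under NT, so that all treated libraries lay above both DMSO libraries. Its log2 fold change was 0.48 ± 0.05 (SE, 95% interval 0.37 to 0.59) with ET-3 and 0.57 ± 0.05 (0.45 to 0.68) with NT, with Benjamini-Hochberg adjusted p of 1.76e-05 and 5.63e-06 in limma.

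Diaph2, on the X chromosome (ENSMUSG00000034480, chrX:129749742-130465834, forward strand), read 207 and 188 under DMSO, 242 and 257 under ET-3, and 286 and 322 under NT. The 3 groups did not overlap, with NT highest. The log2 fold change of Diaph2 was 0.34 ± 0.08 with ET-3 and 0.62 ± 0.08 with NT, with Benjamini-Hochberg adjusted p of 0.00563 and 0.000121 in limma. The ET-3 call of Diaph2 was lost without the second DMSO library (Benjamini-Hochberg adjusted p = 0.0758 in limma) and without the second ET-3 library (0.0644). Diaph3, which is known for its part in cell division and protrusions, read 419 and 409 under DMSO, 490 and 575 under ET-3, and 552 and 527 under NT. All treated libraries of Diaph3 were above the DMSO libraries, and the ET-3 pair was the widest. Its log2 fold change was 0.36 ± 0.07 with ET-3 and 0.38 ± 0.07 with NT, with Benjamini-Hochberg adjusted p of 0.00166 and 0.00117 in limma. Both calls of Diaph3 were lost without the second DMSO library, at Benjamini-Hochberg adjusted p of 0.0565 and 0.0504 in limma. Diaph3 (ENSMUSG00000022021) lies on the reverse strand at chr14:86655367-87141235.

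Fhod1 and Fmnl3 showed the largest rises with ET-3 among the 10. Fhod1, which acts on contractile bundles, read 257 and 274 under DMSO, 422 and 426 under ET-3, and 434 and 448 under NT. The 4 treated libraries of Fhod1 lay close together and above both controls. Its log2 fold change was 0.67 ± 0.06 with ET-3 and 0.73 ± 0.06 with NT (1.66-fold higher with NT), with Benjamini-Hochberg adjusted p of 4.61e-06 and 2.82e-06 in limma. Within the Fhod pair, Fhod1 thus rose and Fhod3 fell. Fhod1 (ENSMUSG00000014778) lies on the reverse strand at chr8:105329163-105347953 and shares 2.49% of its exonic bases with Tmem208.

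Fmnl3, a formin of filopodia and cell contacts, read 536 and 613 under DMSO, 910 and 874 under ET-3, and 884 and 825 under NT. Every treated library exceeded both DMSO libraries. The log2 fold change of Fmnl3 was 0.64 ± 0.07 with ET-3 and 0.57 ± 0.07 with NT, 1.55-fold and 1.49-fold higher, with Benjamini-Hochberg adjusted p of 1.73e-05 and 3.83e-05 in limma. After the same averaging the Benjamini-Hochberg adjusted p of Fmnl3 was 0.0678 with ET-3 and 0.0802 with NT in limma. Fmnl2, a close relative that works in lamellipodia, read 259 and 253 under DMSO, 282 and 296 under ET-3, and 323 and 330 under NT. The groups did not overlap, but the step from DMSO to ET-3 was small. The log2 fold change of Fmnl2 was 0.17 ± 0.06 (95% interval 0.03 to 0.31) with ET-3 and 0.35 ± 0.06 (0.21 to 0.49) with NT, with Benjamini-Hochberg adjusted p of 0.0338 and 0.000791 in limma. The ET-3 call of Fmnl2 was lost without the second DMSO library, the second ET-3 library or either NT library, with Benjamini-Hochberg adjusted p of 0.0780, 0.131, 0.0596 and 0.0601 in limma. Fmnl3 (ENSMUSG00000023008) lies at chr15:99317225-99370482 on the reverse strand and Fmnl2 (ENSMUSG00000036053) at chr2:52857860-53133804 on the forward strand.

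The stretches before Fmnl3 and Fhod1 are shown for contrast, because of the 10 formins these had the largest rises with ET-3. The Fmnl3 stretch is chr15:99370483-99370732 and the Fhod1 stretch chr8:105347971-105348220, both on the reverse strand of GRCm38.p6 and from the RefSeq table, with 65.2% and 63.2% G and C. Each holds 1 match to CANNTG, in capitals, which begins 216 bases before the end of the Fmnl3 stretch and 18 bases before the end of the Fhod1 stretch.
Fmnl3 promoter: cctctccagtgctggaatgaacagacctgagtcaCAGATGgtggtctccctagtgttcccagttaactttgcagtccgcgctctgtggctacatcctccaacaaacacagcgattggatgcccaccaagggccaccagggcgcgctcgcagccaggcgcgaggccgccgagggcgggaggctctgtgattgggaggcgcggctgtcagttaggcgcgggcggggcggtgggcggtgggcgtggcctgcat
Fhod1 promoter: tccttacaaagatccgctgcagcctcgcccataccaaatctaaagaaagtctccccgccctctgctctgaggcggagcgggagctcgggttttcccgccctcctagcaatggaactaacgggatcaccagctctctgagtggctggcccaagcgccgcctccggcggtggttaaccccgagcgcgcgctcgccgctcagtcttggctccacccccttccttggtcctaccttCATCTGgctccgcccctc
Over all 10 promoters that the table holds for 8 of the formin genes, in windows of 250 bases, CANNTG was present in 5, namely in 1 of 2 promoters of Daam1 and in those of Diaph2, Diaph3, Fhod1 and Fmnl3. It was present in 66.2% of the 32851 mouse promoters searched in the same way. The letters are their own reverse complement in form, so 1 search covers both strands. CAGCTG, the form of the E-box that MyoD prefers and a special case of CANNTG, was present in 0 of the 10 and in 13.0% of all promoters. The CArG box of serum response factor was present in 0 of the 10 and in 1.47% of all promoters, and the MEF2 box in 0 of the 10 and in 2.92%, both searched on both strands. A match in such a window is a description of the letters and not a site of binding.

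Daam1, the partner of Daam2 in the Wnt pathway, differed from it. Its values were 935 and 804 under DMSO, 791 and 781 under ET-3, and 843 and 821 under NT. The DMSO libraries were far apart, and both NT libraries lay between them. The log2 fold change of Daam1 was -0.14 ± 0.07 (95% interval -0.29 to 0.01) with ET-3 and -0.06 ± 0.07 (-0.21 to 0.09) with NT, with Benjamini-Hochberg adjusted p of 0.0838 and 0.453 in limma. The values of Daam1 turned on the DMSO libraries. Without the first of them the log2 fold change with ET-3 was -0.033, with Benjamini-Hochberg adjusted p = 0.509 in limma. Without the second, the values were -0.25 with ET-3 and -0.17 with NT, with Benjamini-Hochberg adjusted p of 0.00773 and 0.0236 in limma. Under library totals the NT value of Daam1 turned to 0.05, and the median of all tested genes moved to 0.08 with ET-3 and 0.10 with NT. Daam1 (ENSMUSG00000034574) lies on the forward strand at chr12:71831078-71992333. Diaph1 and Fhod3 both lie on chromosome 18.

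**Figure D2:**
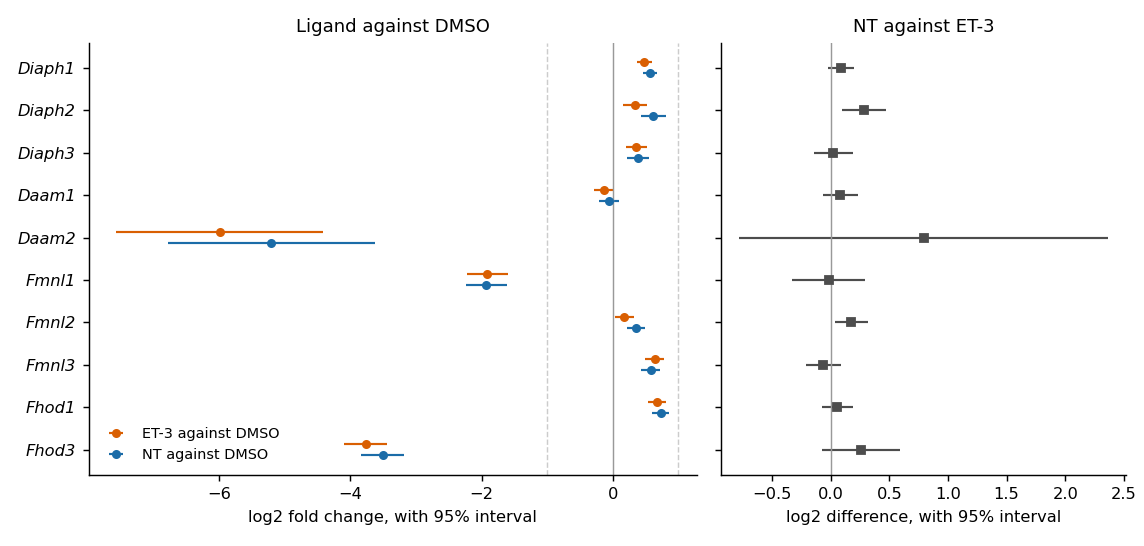
Fitted log2 fold changes of the 10 formins with 95% intervals are shown on the left for ET-3 (orange) and NT (blue) against DMSO, with dashed lines at 2-fold, and on the right for NT against ET-3. Daam2, Fhod3 and Fmnl1 lie beyond the lower 2-fold line under both peptides, and on the right only the intervals of Diaph2, 0.09 to 0.47, and Fmnl2, 0.03 to 0.32, do not include 0.

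Between the peptides no formin passed the test. Of all tested genes, 2.69% were called between NT and ET-3 by limma after Benjamini-Hochberg adjustment at 0.05, and 0 of the 10 formins were among them. At an unadjusted p under 0.05, 2 of the 10 formins differed, beside 19.9% of all tested genes, and with voom weights on the recovered reads 1 was called, beside 5.95%. Diaph2 was higher with NT than with ET-3 by 0.28 ± 0.08 on the log2 scale (95% interval 0.09 to 0.47), with Benjamini-Hochberg adjusted p = 0.108 in limma and 0.0407 under voom. Fmnl2 was higher with NT by 0.18 ± 0.06 (0.03 to 0.32), with Benjamini-Hochberg adjusted p = 0.161 in limma. The interval for Daam2 ran from -0.78 to 2.36, so that its few reads allow a large difference in either direction. For Diaph1, Diaph3, Daam1, Fmnl1, Fmnl3, Fhod1 and Fhod3 the difference was between -0.06 and 0.26, and each interval included 0. An interval that includes 0 does not show that the peptides acted alike.

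To compare levels between formins, values were divided by the exonic length of each gene in kilobases. The length joins all annotated exons of a gene, whichever transcripts were present, so the order and shares of the formins depend on it. On that scale Fmnl3 was the highest of the 10 in every group, at means of 114 (DMSO), 178 (ET-3) and 170.2 (NT). With DMSO it was followed by Daam1 at 107, whose libraries overlapped those of Fmnl3, then by Diaph1 at 81.5 and Diaph3 at 74.3. Fhod1 at 56.9, Fhod3 at 56.3 and Fmnl1 at 54.6 overlapped as neighbours. Below them stood Fmnl2 at 45.4, then Diaph2 at 17.1 and Daam2 at 15.9, which overlapped. The order with ET-3 was Fmnl3, Diaph1 at 114, Daam1 at 97.1, Diaph3 at 95.6, Fhod1 at 90.9, Fmnl2 at 51.3, Diaph2 at 21.6, Fmnl1 at 14.3, Fhod3 at 4.00 and Daam2 at 0.256. Only Daam1, Diaph3 and Fhod1 overlapped as neighbours there. The order with NT was the same, with Diaph1 at 121, Daam1 at 103, Diaph3 at 96.9, Fhod1 at 94.5, Fmnl2 at 57.9, Diaph2 at 26.3, Fmnl1 at 14.1, Fhod3 at 4.83 and Daam2 at 0.358, and only Diaph3 and Fhod1 overlapped. Diaph1 thus stood above Daam1 in both treated groups and below it with DMSO.

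The summed level of the 10 formins per kilobase changed little beside its make-up. The sum was 629 and 619 under DMSO, 666 and 667 under ET-3, and 696 and 681 under NT. Diaph1, Diaph2 and Diaph3 together made up 27.7% of the sum in each DMSO library, 34.0% and 35.3% under ET-3, and 35.3% and 35.5% under NT. Fhod3, Daam2 and Fmnl1 made up 20.9% and 19.8% under DMSO, 2.96% and 2.62% under ET-3, and 2.82% and 2.78% under NT. These shares describe the values above and add no separate test.

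**Figure D3:**
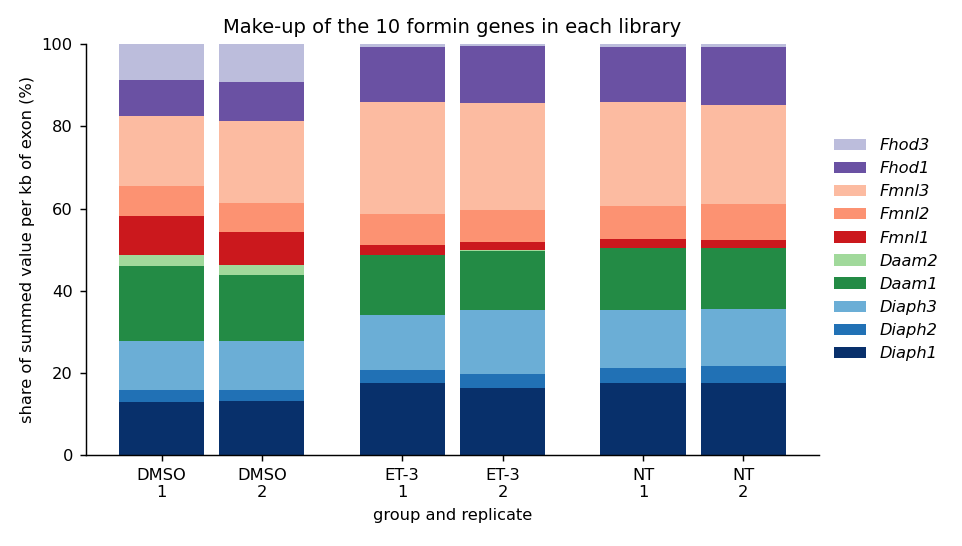
Stacked bars give, for each library, the share of each formin in the summed value per kilobase of exon of the 10 genes, from 0 to 100%. The segments of Fhod3, Daam2 and Fmnl1 shrink from 20.9% and 19.8% of the DMSO bars to between 2.62% and 2.96% of the treated bars, and those of Fmnl3, Diaph1 and Fhod1 widen.

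In the annotation that the deposited table carries, 3 of the 10, namely Diaph1, Diaph2 and Diaph3, belong to the KEGG pathway for regulation of the actin cytoskeleton, which holds 188 genes of the table, and 2, Daam1 and Daam2, to the Wnt signaling pathway, which holds 120. The Gene Ontology term for actin binding lists 9 of the 10. Profilin binding lists Diaph1, which rose, and Fmnl1, which fell. The sarcomere term lists Fhod3 alone among them.

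Further formins of the mouse were examined for comparison. Of 5 listed, 4 had a row, and 2 of these rose in both comparisons in limma after Benjamini-Hochberg adjustment at 0.05. Of all tested genes, 30.6% rose with ET-3 and 29.7% with NT. Fhdc1, a formin that also binds microtubules, read 30 and 19 under DMSO, 58 and 45 under ET-3, and 55 and 69 under NT, and rose by 1.07 ± 0.26 and 1.33 ± 0.26 on the log2 scale. It lay low in all libraries, but its groups did not overlap with DMSO. Inf2, a formin that also severs filaments, read 971 and 1122 under DMSO, 1257 and 1189 under ET-3, and 1169 and 1174 under NT. The fitted log2 fold change was 0.23 with ET-3 and 0.17 with NT, with Benjamini-Hochberg adjusted p of 0.0107 and 0.0457 in limma. Fmn1, at 125 to 182, and Fmn2, at 14 to 38, did not pass the test in either comparison.

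The genes that act with formins moved in both directions. Of the 20 formin partners, such as the profilins, Dishevelled proteins and IQGAPs, 10 rose and 7 fell with ET-3, and 7 rose and 8 fell with NT, and 0 of these changes reached 2-fold. All counts are those of limma after Benjamini-Hochberg adjustment at 0.05, beside the 30.6% risen and 33.2% fallen of all tested genes with ET-3 and 29.7% and 32.5% with NT.

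Among the other nucleators of actin, 18 were tested, of which 6 rose and 6 fell with ET-3, and 3 rose and 6 fell with NT. The genes that fell most in both comparisons were leiomodins, which act on actin filaments of muscle. Lmod2 read 645 and 690 under DMSO, 5 and 5 under ET-3, and 5 and 2 under NT. Lmod3 read 945 and 1048 under DMSO, 23 and 8 under ET-3, and 20 and 13 under NT, and Lmod1 read 91 and 110 under DMSO and 0 to 1 in the treated libraries. Lmod1 and Lmod2 were thus near 0 in the treated libraries, as Daam2 was, while Lmod3 stood at 8 to 23. Of 17 genes of actin turnover, 4 rose and 9 fell with ET-3, and 2 rose and 10 fell with NT. Of all tested genes, 30.6% rose and 33.2% fell with ET-3, and 29.7% and 32.5% with NT. Tmod1, a tropomodulin that caps the pointed ends of sarcomeric filaments, read 469 and 485 under DMSO, 8 and 4 under ET-3, and 6 and 4 under NT. Gsn, the severing protein gelsolin, read 740 and 805 under DMSO and 307 to 402 in the treated libraries.

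Serum response factor and its MRTF coactivators read the pool of free actin, which formins lower. Of 21 tested genes listed for serum response factor, the MRTFs and their targets, 5 rose and 11 fell with ET-3, and 2 rose and 14 fell with NT. The medians were -0.22 and -0.30 on the log2 scale. Whether each listed gene depends on free actin in these cells was not tested. The shares of all tested genes were 30.6% risen and 33.2% fallen with ET-3, and 29.7% and 32.5% with NT. Fosb was the only one to rise by at least 2-fold in both comparisons, from values of 19 and 25 under DMSO to 99 and 94 under ET-3 and 86 and 97 under NT. Of the 6 that fell by at least 2-fold in both, Actg2, Tagln and Acta2 had the largest changes by the mean of the 2 absolute log2 fold changes. Fos, named here after its values were seen because its relative Fosb rose, read 195 and 231 under DMSO and 37 to 55 in the treated libraries. Tagln, which encodes the actin-binding protein transgelin, read 558 and 589 under DMSO, 102 and 107 under ET-3, and 130 and 111 under NT. Acta2 read 1216 and 1382 under DMSO and 251 to 281 in the treated libraries, and Actg2 read 84 and 64 under DMSO and 4 to 9. The actin genes resemble each other in coding sequence, so the split of reads between Acta2 and Actg2 is uncertain.

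**Figure D4:**
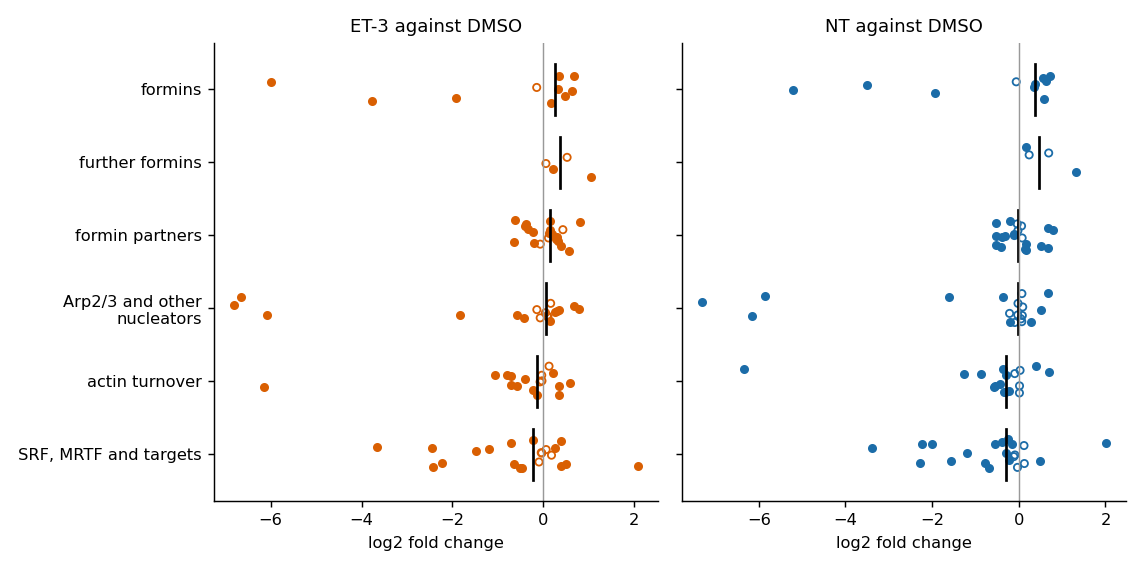
Each point is the log2 fold change of 1 tested gene against DMSO, with ET-3 on the left and NT on the right, for the 10 formins and 5 lists of related genes. Filled points passed limma after Benjamini-Hochberg adjustment at 0.05, open points did not, and black lines mark the median of a list. The formin medians lie at 0.26 and 0.37, and the points below -3 are Daam2 and Fhod3 among the formins, the 3 leiomodins, Tmod1 and Actg2.

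Other state genes moved beside the formins. Pax7, the transcription factor of MuSCs, read 857 and 1070 under DMSO, 1754 and 1730 under ET-3, and 1653 and 1599 under NT. Mki67, a gene of cycling cells, rose with both peptides, from 1850 and 2002 under DMSO to 2595 and 2678 under ET-3 and 2688 and 2538 under NT. Myog fell, with log2 fold changes of -5.14 with ET-3 and -5.35 with NT. Myod1, the myogenic determination factor, read 1324 and 1444 under DMSO, 1539 and 1449 under ET-3, and 1192 and 1100 under NT. The part of these shifts in the formin differences was not tested.

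Marker genes of other cell types also moved with the peptides. The 5 markers of smooth muscle cells and pericytes summed to 959 and 1042 under DMSO and 443 to 525 in the treated libraries. Of these, Rgs5 fell from 117 and 150 to 2 to 5 and Pdgfrb from 227 and 278 to 3 to 13, whereas Myh11 and Kcnj8 stood at 0 to 4 in all libraries. Cspg4, the largest part of the sum, read 610 and 612 under DMSO and 433 to 509 in the treated libraries. The 4 endothelial markers with a row summed to 24 and 12 under DMSO and 85 to 107 in the treated libraries, with Tek, at 2 and 1 against 42 to 70, the gene that moved most, and Cdh5 at 0 to 5. The 3 white blood cell markers with a row summed to 85 and 90 under DMSO and 200 to 223 in the treated libraries, mostly Laptm5. Ptprc and Adgre1 had no row. The fibroadipogenic markers summed to 56 to 89 and the Schwann cell markers to 32 to 69 over all 6 libraries. The part of other cell types in the values of Daam2, Fhod3, Fmnl1 and the remaining formins was not tested.

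The genes most like Diaph1 and Daam2 over the 6 libraries were sought among the other 13920 tested genes, by the root mean square difference of log2(value + 1) after centring each gene on its mean. Closest to Diaph1 were Dbr1 at 0.0227, 5031439G07Rik at 0.0248 and Mboat7 at 0.0268. Dbr1 read 166 and 172 under DMSO, 242 and 232 under ET-3, and 256 and 255 under NT. Closest to Daam2 were Dlg2 at 0.317, Tm6sf1 at 0.407 and Cav3, the caveolin of muscle, at 0.464. Dlg2 read 131 and 95 under DMSO, 0 and 4 under ET-3, and 2 and 1 under NT. The likeness to Daam2 rests on the low treated values, which carry large counting errors.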

How the data were processed

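RNA-seq of cultured MuSCs was examined in 6 libraries, which were grouped as DMSO, ET-3 or NT by their labels. The authors sequenced single-end reads, aligned them to mm10 and counted them per gene. The submitters' processing notes name Trimmomatic 0.38, STAR 2.7.7a, featureCounts 1.6.5 and DESeq2 1.30.0, whereas the paper's methods name another trimmer, other versions and a stranded kit where the labels name SMART-Seq HT, so whether strand was kept is not settled. The deposited values are a read signal of whole numbers, namely counts to which 1 factor per library and rounding had been applied, and 0 columns belonged to other samples. The factors were estimated from the whole numbers up to 280 that no read count can give and from how often each number occurs.

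Values were tested as deposited with limma 3.58.1 in R 4.3.3 on log2(value + 1) with a mean-variance trend, over all 6 libraries, for genes whose mean value reached 5, with Benjamini-Hochberg adjustment over all tested genes. All 10 formins passed this filter. edgeR was not run because the values are scaled. The fit was tested on simulated data. The formins, the gene lists and the tests were chosen with earlier results of these data known. Named were all formins, and from the other lists up to 3 genes per direction that passed 2-fold in both comparisons, with Pax7, Myod1, Myog and Mki67; markers were given by list. Rhoa, Rock1 and Rock2 were left out, and some of the lists and terms examined are not reported here. Exonic lengths and exon overlaps came from GENCODE M21 on GRCm38, which matched 18920 of the 18943 genes by Ensembl identifier, and promoters from RefSeq. Tables were made in Python 3.11.15 (pandas 2.3.3, numpy 2.4.6) and figures in matplotlib 3.10.9. Alternatives covered the filter, library totals, upper quartile, pseudocounts of 0.5 and 5, voom weights on recovered reads, a replicate block, 2 groups alone, treated pairs averaged and each library left out.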

Additional observations from a re-analysis of the deposited data

How the results depend on the processing

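The counts of formins called against DMSO, risen and fallen together, stayed within 1.5 times in every alternative run. The calls of Diaph1, Daam2, Fmnl1, Fhod1 and Fhod3 held in all of them. The count of rises alone moved more. It lost Diaph2, Fmnl2 and Fmnl3 after averaging the treated pairs. With ET-3 it lost Diaph2, Diaph3 and Fmnl2 without the second DMSO library, where Daam1 was called as a fall. The single formin calls that were lost are given beside their values above, except that with ET-3 against DMSO Fmnl2 was not called with 2 groups alone (Benjamini-Hochberg adjusted p = 0.0632 in limma), and that after averaging the treated pairs the Benjamini-Hochberg adjusted p in limma was 0.116 and 0.0583 for Diaph2 and 0.123 and 0.0563 for Fmnl2, for ET-3 and NT in turn. Between NT and ET-3, 1 formin was called under voom against 0 otherwise. Signs turned for 4 differences that had not been called. Daam1 with NT stood at 0.053 under library totals and 0.047 under voom, and between -0.17 and 0.049 when 1 library was left out, with the sign turned without the first DMSO library. For NT against ET-3, leaving out 1 library gave -0.092 to 0.14 for Diaph3, -0.50 to 2.08 for Daam2 and -0.14 to 0.11 for Fmnl1, with the sign turned without the first ET-3 library for all 3, without the first NT library for Diaph3 and without the second NT library for Fmnl1. Fmnl1 stood at 0.0070 under library totals and 0.0018 under voom. The cause was not tested. Daam2 had no value for NT against ET-3 with 2 groups alone, since it failed the filter there.

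The total counts over all tested genes moved more than the total counts of the formins. After averaging the treated pairs, far fewer genes were called than the 4257 risen and 4616 fallen with ET-3 and the 4131 and 4528 with NT. Rises were lost more often than falls. The falls of at least 2-fold, the direction of all formin calls of that size, shrank least. The 375 genes called between NT and ET-3, 90 higher and 285 lower, became 0 with the replicate block, with 2 groups alone, without the filter, after averaging and without any 1 library, at 2628, 2990, 3110, 662 and between 1455 and 2902 genes of unadjusted p under 0.05. They became 45 and 140 with pseudocount 0.5, 115 and 475 under upper quartile, and 337 and 491 under voom.

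Deviations of libraries with the same replicate number had correlations of -0.01, -0.07 and -0.02 between groups. Each correlation includes a treated pair that differed by no more than sampling noise, so these values cannot decide whether the numbers pair libraries. With the replicate block, 9 formins were called with ET-3 and 9 with NT, and 0 between the peptides. Past 2-fold against DMSO, 3 were called with either peptide, and the block changed no call of a single formin. Of all 13921 tested genes, 4194 rose and 4553 fell with ET-3 under the block, and 4064 and 4440 with NT. By at least 2-fold, 918 rose and 2067 fell with ET-3, and 1013 and 1835 with NT. Depth limits Daam2 most, with 0 to 6 reads in each treated library.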
